A study of Mus musculus with 6 samples.

Results

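NRF2 target genes of redox control and detoxification were followed in E0771 cells, a mouse mammary carcinoma line, across 6 RNA sequencing libraries. The set holds 10 genes, chosen by symbol from the 28063 genes of the deposited count table: Nqo1, Hmox1, Gclc, Gclm, Txnrd1, Srxn1, Slc7a11, Gsta4, Gstm1 and Ephx1. The study compared 3 populations with 2 libraries each. Malt1_PD cells expressed the form of Malt1 that the labels call the PD mutant, an abbreviation they leave unexplained, Malt1_WT cells expressed wild-type Malt1, and Vector cells carried the control vector. All 3 populations had been kept with activated CD8 T cells for 12 h at 3 effectors per target, then washed, detached and plated again before lysis 6 h later. No group without T cells was analysed here, so the values compare Malt1 forms after T cell contact and not the contact itself. Each form was 1 population, so the form and the population cannot be told apart. The promoter that drives the added Malt1 is not given in the sources used here. Whether both libraries of 1 group stem from different cultures is not in the labels, so the p-values rest on a spread that may be technical.

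NRF2, encoded by Nfe2l2, is a transcription factor that KEAP1 holds in the cytoplasm and passes on for degradation. Electrophiles and oxidants modify KEAP1, and NRF2 then enters the nucleus, pairs with small MAF proteins and binds antioxidant response elements in its target genes. In tumour cells this programme is known for its supply of glutathione, for keeping thioredoxin and peroxiredoxins reduced and for clearing reactive compounds. The genes followed here cover those roles: cystine import (Slc7a11), glutathione synthesis (Gclc, Gclm), the thioredoxin branch (Txnrd1, Srxn1), quinone and haem metabolism (Nqo1, Hmox1), glutathione transfer (Gsta4, Gstm1) and epoxide hydrolysis (Ephx1).

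None of the NRF2 targets passed the test between any of the populations. Ephx1 was 1.33 times as high in the populations with added Malt1 as in Vector, with no overlap between libraries, but did not pass the test over all genes. Gsta4 was lowest in Malt1_PD and highest in Vector, with few counts and a wide interval. The other 8 genes differed by at most 1.20-fold between group means. Outside the set, Txnip and Akr1b8 lay below Vector in both populations and Keap1 above it. None of them passed the edgeR test with all libraries, the low-count filter and no correction for gene length, though some did in other settings.

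Libraries held between 14045390 and 19962014 counts. Levels are given as CPM (counts scaled to library size) with TMM library sizes, and 3 counts, taken as the floor, equal 0.150 to 0.214 CPM. Malt1 itself reached 106 and 95.7 CPM in the Malt1_PD libraries and 67.2 and 82.1 CPM in the Malt1_WT libraries. Vector had 23.8 and 31.3 CPM, as the labels would have it. For Malt1, Malt1_PD stood at 3.65-fold of Vector and passed the test over all genes (adjusted p = 0.0265, edgeR). Malt1_WT stood at 2.71-fold of Vector without overlap between libraries, but did not pass (adjusted p = 0.092, edgeR). A gene that misses the threshold can therefore still differ between the populations. Epithelial markers were uneven: Krt8 averaged 116 CPM and Epcam 7.24 CPM, while Krt18, Krt19, Krt7 and Cdh1 each averaged under 0.5 CPM. Of 12 T cell markers, 8 had a row in the table, and they summed to 5 and 9 counts in Malt1_PD, 3 and 18 in Malt1_WT and 10 and 8 in Vector. Gzmb, Cd3e, Cd2 and Trbc1 were not analysed here. The 5 myeloid markers, mostly Cd68 and Lyz2, summed to 8.29 and 7.31 CPM in Malt1_PD and 7.90 and 9.22 CPM in Malt1_WT, against 11.0 and 9.08 CPM in Vector. Their part in the results below was not tested. In RNA from whole cultures, fewer cells of a type and less RNA per cell cannot be told apart. Counts on well-covered genes from 10135 nt upward made up 10.9% of Malt1_WT replicate 1 and 9.65% of Vector replicate 1, against 11.9% to 12.6% in the other 4 libraries.

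The antioxidant response element was looked for at the gene starts, as a description of the sequences and not of binding. RefSeq windows of 250 bases before to 50 bases after a transcript start (GRCm38.p6) were given for 7 of the 10 genes, with 10 windows in all. Hmox1, Gclc and Gsta4 had no window in the table used. The letters TGACNNNGC, a written form of the element's core, were searched on both strands. They occurred in 3 of the 7 genes, Srxn1, Gclm and Txnrd1, and in 14.0% of all 27025 genes with a window. By window, the count was 3 of 10, against 12.4% of all 32851 windows. The AP-1 letters TGACTCA occurred in Srxn1 alone, at 2 places, and in 5.20% of all windows, with no overlap with TGACNNNGC. Other written forms of the antioxidant response element were not searched, so one that overlaps those AP-1 places would have been missed. The 3 windows with the core are shown because they show where it lies, and that of Ephx1 because this gene had the lowest p of the set. Capitals mark the core, which is on the reverse strand in all 3, and each sequence runs 5′ to 3′ on the gene's own strand. In Srxn1 (chr2:152105274-152105573, plus strand) the core spans bases 29 to 37 after the start. In Gclm (chr3:122245307-122245606, plus strand) it spans bases -134 to -126. In Txnrd1 (chr10:82858956-82859255, plus strand, 1 of 3 starts in the table) it spans bases -92 to -84. The window of Ephx1 (chr1:181017520-181017819, minus strand) holds neither motif, which says only that these letters are not in this window.
Srxn1: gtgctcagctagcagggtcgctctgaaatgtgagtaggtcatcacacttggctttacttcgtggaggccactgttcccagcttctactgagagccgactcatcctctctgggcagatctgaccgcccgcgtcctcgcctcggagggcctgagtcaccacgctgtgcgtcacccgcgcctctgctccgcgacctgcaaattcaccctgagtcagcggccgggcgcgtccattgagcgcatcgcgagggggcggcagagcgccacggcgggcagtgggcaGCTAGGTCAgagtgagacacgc
Gclm: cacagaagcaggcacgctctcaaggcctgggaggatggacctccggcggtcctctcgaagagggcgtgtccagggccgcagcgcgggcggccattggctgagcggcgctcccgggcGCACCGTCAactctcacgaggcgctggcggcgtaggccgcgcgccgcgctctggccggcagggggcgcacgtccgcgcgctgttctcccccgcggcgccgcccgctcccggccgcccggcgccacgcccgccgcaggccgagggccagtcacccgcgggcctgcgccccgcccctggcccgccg
Txnrd1: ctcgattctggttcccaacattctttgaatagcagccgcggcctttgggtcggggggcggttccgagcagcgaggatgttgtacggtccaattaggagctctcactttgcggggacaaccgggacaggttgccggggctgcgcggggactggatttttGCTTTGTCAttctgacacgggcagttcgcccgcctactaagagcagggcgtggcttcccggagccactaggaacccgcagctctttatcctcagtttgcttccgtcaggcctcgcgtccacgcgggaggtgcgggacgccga
Ephx1: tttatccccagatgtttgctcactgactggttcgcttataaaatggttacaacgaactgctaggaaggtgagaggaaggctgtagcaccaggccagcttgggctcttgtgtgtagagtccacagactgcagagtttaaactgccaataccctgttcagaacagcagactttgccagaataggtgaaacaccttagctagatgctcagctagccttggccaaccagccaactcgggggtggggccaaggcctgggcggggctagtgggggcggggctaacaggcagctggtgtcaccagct

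All 10 genes passed the low-count filter, and they spanned a wide range of levels. Between genes, levels are compared as RPKM, which here is CPM per kilobase of the deposited gene length, as the mean ± SD of all 6 libraries. Hmox1, haem oxygenase 1, which opens the haem ring and releases iron, was the most abundant at 102 ± 5.72 RPKM, above 97.1% of the genes tested. Txnrd1, the cytosolic thioredoxin reductase, had 38.6 ± 1.15 RPKM and Srxn1, the sulfiredoxin that repairs overoxidised peroxiredoxins, had 37.0 ± 0.602 RPKM. Their ranges over the libraries overlapped. Ephx1 followed at 29.7 ± 4.44 RPKM and Gclc at 14.5 ± 1.22 RPKM, each apart from its neighbours in every library. Gclm at 10.2 ± 0.363, Nqo1 at 10.2 ± 0.559 and Gstm1 at 10.0 ± 0.984 RPKM overlapped and cannot be ordered. Lowest were Gsta4 at 3.87 ± 0.773 and Slc7a11 at 2.85 ± 0.280 RPKM, whose ranges also overlapped. For each gene, the highest of the 6 libraries was at most 1.73 times the lowest, so differences between genes were mostly larger than those between groups.

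**Figure D1:**
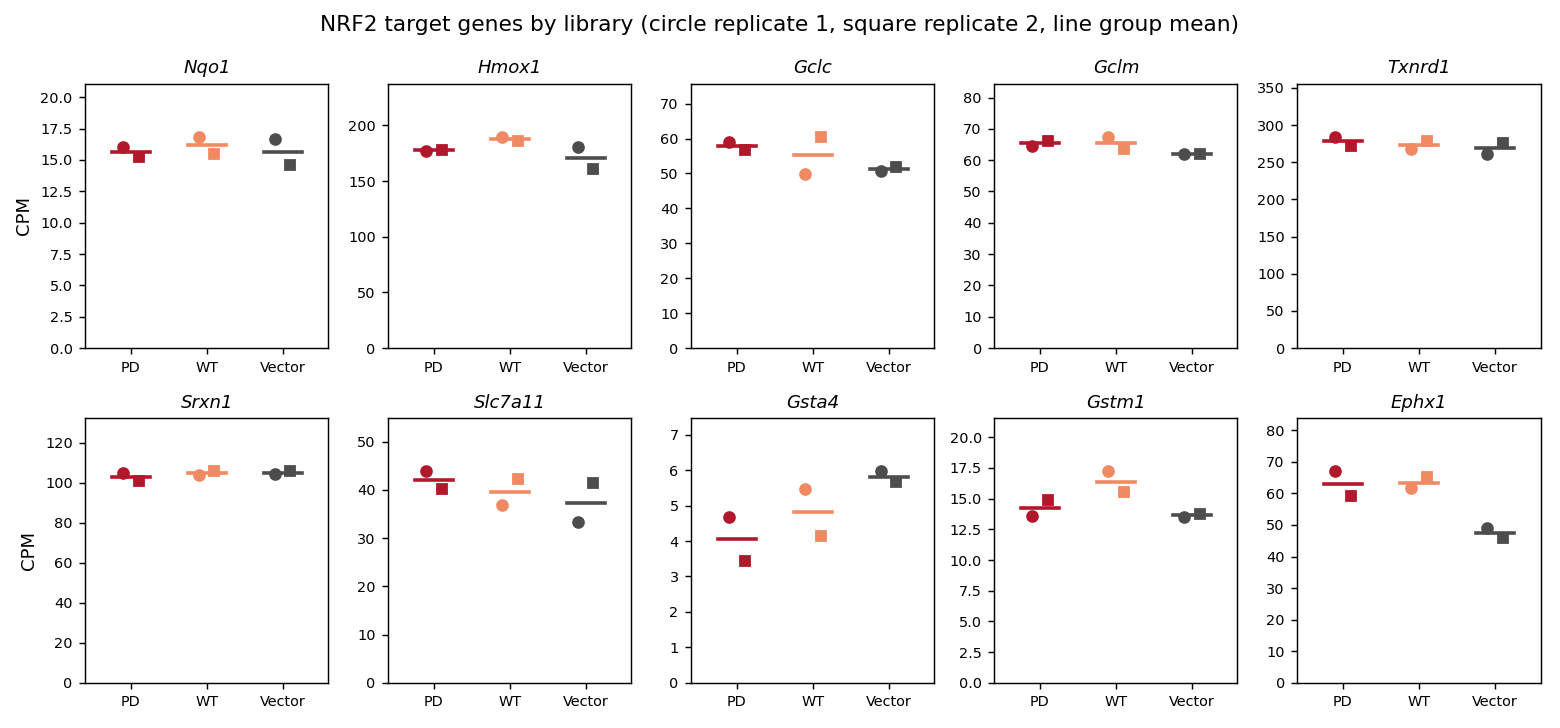
Level of each NRF2 target gene in CPM (linear axes from 0, 1 scale per gene) in Malt1_PD (PD), Malt1_WT (WT) and Vector libraries; circles are replicate 1, squares replicate 2 and lines the group mean. Both Vector libraries of Ephx1, at 49.0 and 45.9 CPM, lie below the other 4, and both Vector libraries of Gsta4, at 5.97 and 5.66 CPM, lie above the other 4.

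Glutathione begins with cystine uptake and the step that joins glutamate to cysteine. Slc7a11 (xCT, chromosome 3), the transport subunit of the cystine-glutamate exchanger, had 43.8 and 40.2 CPM in Malt1_PD and 36.9 and 42.3 CPM in Malt1_WT, against 33.3 and 41.5 CPM in Vector. The low library of Malt1_WT and that of Vector was replicate 1 in both, and the 3 groups overlapped. Slc7a11 is the longest gene of the set at 13922 nt, and those are the libraries with a low share of long genes. Gclc, the catalytic subunit of glutamate-cysteine ligase, had 59.1 and 56.6 CPM in Malt1_PD and 49.9 and 60.6 CPM in Malt1_WT, against 50.7 and 51.8 CPM in Vector. Both Malt1_PD libraries lay above both Vector libraries, while the Malt1_WT pair spanned the range of the others. Gclm, the modifier subunit, had 64.6 and 66.1 CPM in Malt1_PD, 67.5 and 63.5 CPM in Malt1_WT and 61.9 CPM in each Vector library. All 4 libraries with added Malt1 lay above Vector, by 1.06-fold on the fitted means in both comparisons (95% intervals 0.926 to 1.21 and 0.924 to 1.21, adjusted p = 0.897 and 0.827, edgeR). Gclm shares 296 exonic bases with the antisense gene Gm17494, which held 1388 counts against 6559 for Gclm over all libraries. The strand setting of the counting is not given in the sources used here. Gclm also shares 244 exonic bases with the same-strand pseudogene Gm6061, which held 0 counts. How reads in these shared bases were counted was not examined here.

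The thioredoxin branch was the steadiest. Txnrd1 had 285 and 272 CPM in Malt1_PD and 267 and 278 CPM in Malt1_WT, against 261 and 276 CPM in Vector. Srxn1 had 105 and 101 CPM in Malt1_PD and 104 and 106 CPM in Malt1_WT, against 105 and 106 CPM in Vector. The coefficient of variation over the 6 libraries was 1.63% for Srxn1, 2.98% for Txnrd1 and 3.56% for Gclm, against a median of 8.22% over 9573 genes with a mean log2 CPM of at least 3. Those 9573 genes were not matched for level to the named genes, and counting error weighs more at low counts. For Srxn1 the 95% interval of the fold was 0.882 to 1.13 in Malt1_WT over Vector and 0.865 to 1.11 in Malt1_PD over Vector.

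Nqo1, the quinone reductase often read as a reporter of NRF2 activity, had 16.1 and 15.2 CPM in Malt1_PD and 16.9 and 15.5 CPM in Malt1_WT, against 16.7 and 14.6 CPM in Vector. The groups overlapped, and the fold over Vector had an interval of 0.814 to 1.23 in Malt1_PD and 0.841 to 1.27 in Malt1_WT. Hmox1 had 177 and 178 CPM in Malt1_PD and 190 and 186 CPM in Malt1_WT, against 180 and 161 CPM in Vector. Both Malt1_WT libraries lay above the other 4, while Vector replicate 1 lay above both Malt1_PD libraries. The fold was 1.10 (0.963 to 1.26) in Malt1_WT over Vector and 1.04 (0.910 to 1.19) in Malt1_PD over Vector, with adjusted p = 0.792 and 0.881 (edgeR, Benjamini-Hochberg over all genes).

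The glutathione transferases differed more between libraries. Gsta4, an alpha-class transferase that conjugates 4-hydroxynonenal, was counted 74 and 58 times in Malt1_PD, 77 and 83 times in Malt1_WT and 106 and 101 times in Vector, or 4.68 and 3.45, 5.48 and 4.14, and 5.97 and 5.66 CPM in that order of groups. Every library with added Malt1 lay below Vector, but within Malt1_PD and within Malt1_WT the libraries differed by 0.43 and 0.40 log2 units. The log2 difference was -0.52 ± 0.23 (SE) in Malt1_PD minus Vector (adjusted p = 0.596, edgeR) and -0.29 ± 0.23 in Malt1_WT minus Vector (adjusted p = 0.857). Leaving out 1 library moved these to between -0.75 and -0.31 in Malt1_PD (without Malt1_PD replicate 1 and without Malt1_PD replicate 2) and between -0.49 and -0.082 in Malt1_WT (without Malt1_WT replicate 1 and without Malt1_WT replicate 2). Its interval in Malt1_PD over Vector, 0.480 to 1.02-fold, was wider than that of the other 9 genes in that comparison. Gstm1, a mu-class transferase, had 13.6 and 14.9 CPM in Malt1_PD and 17.2 and 15.5 CPM in Malt1_WT, against 13.5 and 13.8 CPM in Vector. Both Malt1_WT libraries lay above the other 4, with 1.20-fold (0.977 to 1.47) over Vector (adjusted p = 0.733, edgeR). Malt1_PD over Malt1_WT was 0.872-fold (0.711 to 1.07). How the authors' counting treated reads that match more than 1 mu-class gene was not examined here, so the level of Gstm1 is less certain.

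Ephx1, the microsomal epoxide hydrolase (chromosome 1, 180976210 to 181020904, GRCm38), showed the largest shift of the set against its spread. It had 67.0 and 59.2 CPM in Malt1_PD and 61.6 and 65.2 CPM in Malt1_WT, against 49.0 and 45.9 CPM in Vector. All 4 libraries with added Malt1 lay above both Vector libraries, and Malt1_PD and Malt1_WT overlapped. It averaged 63.1 ± 5.48 CPM in Malt1_PD, 63.4 ± 2.50 CPM in Malt1_WT and 47.4 ± 2.19 CPM in Vector (SD, n = 2 each). Malt1_PD stood at 1.33-fold of Vector (95% interval 1.14 to 1.55), a log2 difference of 0.41 ± 0.10 (SE) with an adjusted p = 0.312 (edgeR, Benjamini-Hochberg). Malt1_WT stood at 1.34-fold (1.14 to 1.56), 0.42 ± 0.10 on the log2 scale with an adjusted p = 0.358. Neither passed the threshold of 0.05. By p, Ephx1 ranked 134 and 101 of the 14675 genes in these comparisons, which share the Vector libraries. Malt1_PD over Malt1_WT had an interval of 0.852 to 1.16. Ephx1 shares 72 exonic bases with the same-strand pseudogene Gm36961, which held 3 counts against 5918 for Ephx1 over all libraries.

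None of the 10 genes was called in any comparison, by edgeR or by DESeq2. Over all genes edgeR called 1 of 14675 in each comparison, a share of 0.00681%, so a count of 0 among 10 is what the background gives. In Malt1_PD against Vector the gene called was Malt1 itself. At an unadjusted p under 0.05, 1 of the 10 (Ephx1) passed in Malt1_WT against Vector, where 7.09% of all genes did (3.3% higher), and 1 (Ephx1) in Malt1_PD against Vector, where 8.61% did (3.73% higher). In Malt1_PD against Malt1_WT 0 passed, and 1.92% of all genes did. The groups did not overlap for 5 of the 10 in Malt1_WT against Vector (4 higher, 1 lower), against 32.6% of all genes (15.5% higher, 17.1% lower). In Malt1_PD against Vector this held for 4 (3 higher, 1 lower), against 38.1% (18.4% higher, 19.7% lower). In Malt1_PD against Malt1_WT it held for 2, both lower (Hmox1 and Gstm1), against 32.1% (16.1% lower). With 10 genes, these counts do not tell the set from the background. The median log2 difference of the 10 was 0.08 in Malt1_WT minus Vector, 0.06 in Malt1_PD minus Vector and -0.02 in Malt1_PD minus Malt1_WT, beside medians of all genes between -0.0016 and -0.0011. Summed over the 10, the level was 835 and 807 CPM in Malt1_PD and 817 and 836 CPM in Malt1_WT, against 777 and 778 CPM in Vector. Txnrd1 and Hmox1 weigh most in that sum. It also includes Ephx1, at 63.1 CPM in Malt1_PD and 63.4 CPM in Malt1_WT against 47.4 CPM in Vector, and the sum was not tested.

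The intervals say how large a change could have gone unseen. In each comparison with Vector, 8 of the 10 genes had a 95% interval within 1.5-fold both ways, the exceptions being Ephx1 at the upper end and Gsta4 at the lower end. In Malt1_PD against Malt1_WT 9 of 10 did, again without Gsta4. A p that misses the threshold does not show that levels were alike, but for these genes a change beyond 1.5-fold lies outside the interval. Like the p-values, the intervals rest on a spread between libraries that may be technical, and on 1 population per form.

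**Figure D2:**
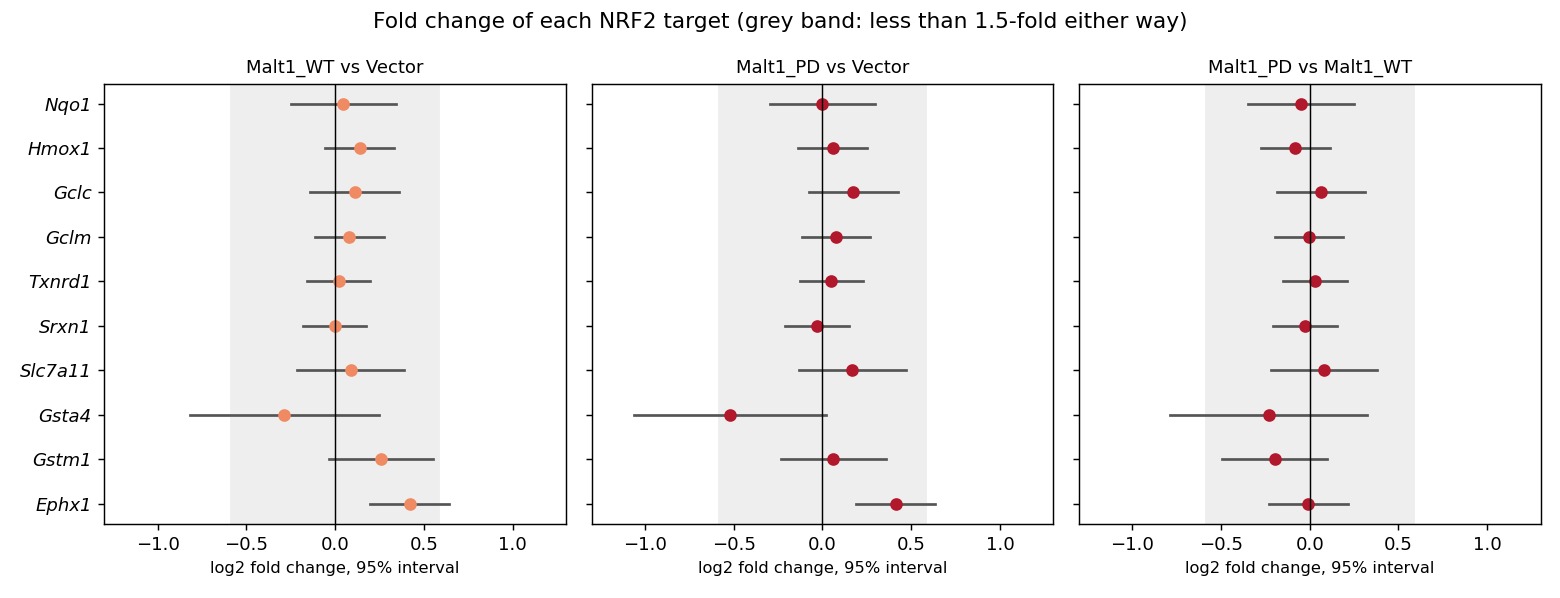
Log2 difference of each NRF2 target gene (point) with its 95% interval (line) in Malt1_WT minus Vector, Malt1_PD minus Vector and Malt1_PD minus Malt1_WT, from edgeR; the grey band marks less than 1.5-fold either way. Ephx1 is the gene whose interval leaves out 0, in both comparisons with Vector, and Gsta4 has the widest interval.

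The Ephx1 result was looked at again without the libraries low in long genes, an alternative chosen after seeing the data. Without Vector replicate 1 and Malt1_WT replicate 1, Ephx1 rose in Malt1_PD over Vector by 0.46 log2 units (adjusted p = 1.04e-07) and in Malt1_WT over Vector by 0.51 (adjusted p = 3.19e-07, edgeR). Hmox1 was then also called higher, by 0.15 (adjusted p = 0.0372) and 0.21 (adjusted p = 0.00972). In that fit 13.7% of 15220 genes were called in Malt1_PD against Vector (6.23% higher) and 6.15% in Malt1_WT against Vector (2.85% higher), and the spread between replicates comes from the Malt1_PD pair alone, with 1 library assumed to vary alike in each of the other groups. With all 6 libraries and the trend on gene length removed, Ephx1 stood at 0.44 in both comparisons with adjusted p = 0.0782 in Malt1_PD and 0.0868 in Malt1_WT. Its size was thus between 0.41 and 0.51 in these fits, and it was called in the 1 that leaves out both libraries. Leaving out any 1 library moved Ephx1 over a wider range, 0.32 to 0.50 in Malt1_PD and 0.38 to 0.47 in Malt1_WT minus Vector.

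**Figure D3:**
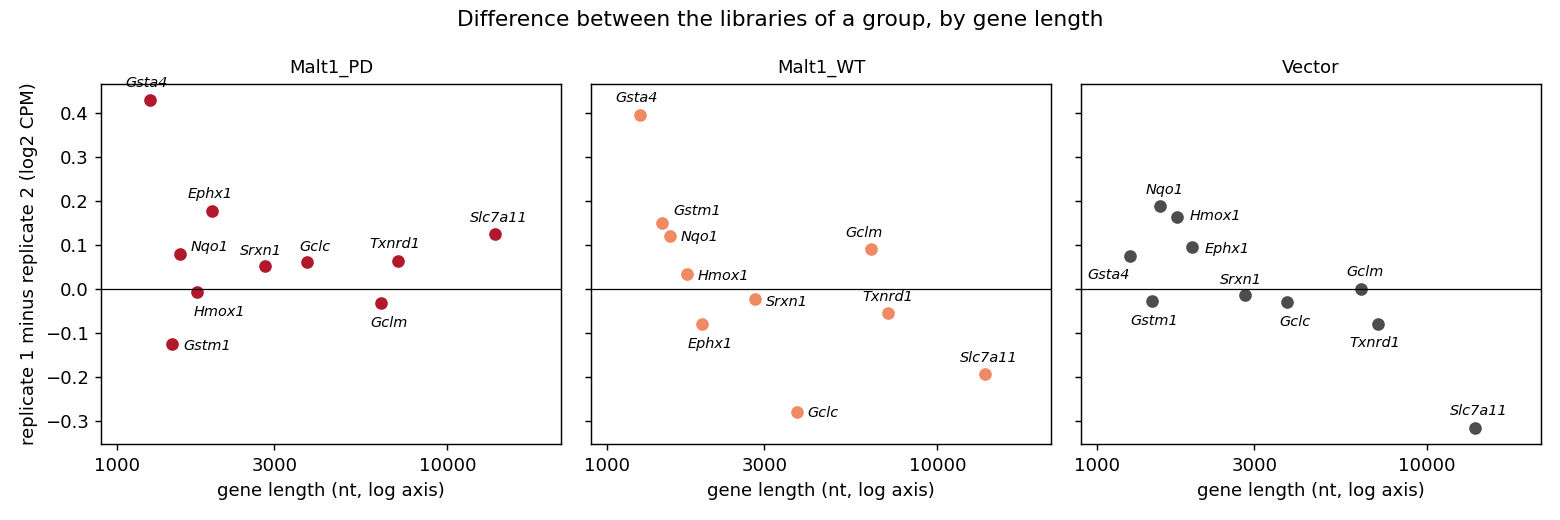
Replicate 1 minus replicate 2 in log2 CPM for each NRF2 target gene, against its deposited length in nt (log axis), in Malt1_PD, Malt1_WT and Vector. Slc7a11, the longest gene, is at 0.12 in Malt1_PD but at -0.19 in Malt1_WT and -0.32 in Vector, and Gsta4, the shortest, is at 0.43 in Malt1_PD and 0.40 in Malt1_WT.

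Within groups, the libraries differed by gene length. Over 9573 genes, the Spearman correlation of the replicate difference with length was 0.05 in Malt1_PD, -0.53 in Malt1_WT and -0.67 in Vector, and genes are not independent replicates. Among the NRF2 targets, Slc7a11 followed that pattern, as did Nqo1 and Hmox1 at the short end in Vector, with 0.19 and 0.16. Others did not: Gclm, at 6291 nt, was at 0.09 in Malt1_WT and -0.0008 in Vector, and Gstm1, at 1473 nt, was at -0.03 in Vector. Gclc, of middling length, was at -0.28 in Malt1_WT, and Gsta4 is the gene with the fewest counts.

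The 10 genes shared no single profile over the libraries. Of their 45 pairs, 26 had a Pearson r above 0 over the 6 libraries, with a median of 0.03. The highest was Txnrd1 with Slc7a11 at 0.97, the second longest and the longest gene, and the lowest was Gclc with Gsta4 at -0.75. Among 11722 genes with a mean log2 CPM of at least 1, those most like Ephx1 were the pseudogene Gm2445 (r = 0.995) and Timm10b (0.994), of 55 over 0.95. Most like Gsta4 were Ifit3 (0.987) and Nprl2 (0.985), and most like Gstm1 were Lsm14a (0.981) and Afp (0.978). With 6 libraries in 3 groups, such values describe a shared order of groups and libraries and carry no p.

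The wider system was read from 86 other genes in 7 lists, of which 85 had a row and 74 passed the filter. None was called in any comparison (edgeR, adjusted p at least 0.249 in Malt1_WT against Vector and 0.165 in Malt1_PD against Vector). At an unadjusted p under 0.05, 3 were higher and 8 lower in Malt1_PD against Vector, 14.9% of the 74 against 8.61% of all genes (3.73% higher, 4.88% lower). In Malt1_WT against Vector 3 were higher and 6 lower, 12.2% against 7.09% (3.3% higher, 3.8% lower). In Malt1_PD against Malt1_WT 1 was higher, 1.35% against 1.92% (1.08% higher). Most leaned lower against Vector: 74.3% had a log2 difference below 0 in Malt1_PD and 73.0% in Malt1_WT, against 50.3% of all genes in each, with medians of -0.07 and -0.06. Against Malt1_WT, 47.3% were below 0 in Malt1_PD, and 50.5% of all genes. With the length trend removed, the share was 70.3% in Malt1_PD and 71.6% in Malt1_WT, against 49.8% and 49.9% of all genes. Without Vector replicate 1 and Malt1_WT replicate 1 it was 45.9% in Malt1_PD and 66.2% in Malt1_WT, against 48.8% and 50.7%. That fit called 6 of the 74 higher and 10 lower in Malt1_PD (21.6%, against 13.7% of all genes), and 2 higher and 9 lower in Malt1_WT (14.9%, against 6.15%). Of the genes described below, Txnip, Akr1b8, Glrx and Fth1 were then called lower and Keap1 and Sod3 higher in both, beside others of the 74. Other settings also raised the share of all genes called: it was 6.05% in Malt1_PD and 3.91% in Malt1_WT without Vector replicate 2, and 0.67% and 0.403% without the low-count filter. With all 6 libraries, the lists had medians between -0.08 and -0.0017 in Malt1_PD minus Vector. In Malt1_WT minus Vector they had medians between -0.08 and -0.03, while the 10 targets had 0.06 and 0.08 in that order of comparisons. Without Vector replicate 1 and Malt1_WT replicate 1, the median of the 74 was 0.020 in Malt1_PD and -0.042 in Malt1_WT. The targets then had 0.065 and 0.062, so in Malt1_PD both medians lay above 0.

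Of 10 regulators and partners tested, 2 were above 0 and 8 below 0 in each comparison with Vector. Nfe2l2 itself, named outside the rule, had 168 and 166 CPM in Malt1_PD and 169 and 170 CPM in Malt1_WT, against 178 and 171 CPM in Vector. Its log2 difference from Vector was -0.06 ± 0.08 in Malt1_PD and -0.04 ± 0.08 in Malt1_WT (adjusted p = 0.844 and 0.95, edgeR). Keap1, the repressor of NRF2, had 45.7 and 51.5 CPM in Malt1_PD and 49.5 and 51.0 CPM in Malt1_WT, against 38.5 and 40.4 CPM in Vector. All 4 libraries with added Malt1 lay above Vector, by 1.23-fold (1.06 to 1.44) in Malt1_PD and 1.28-fold (1.09 to 1.48) in Malt1_WT (adjusted p = 0.467 and 0.454).

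Among the thioredoxin and peroxiredoxin genes, 9 of 11 were below 0 against Vector in each comparison, beside 50.3% of all genes. For several, the direction depended on the Vector library. For Txn1, Prdx1 and Prdx2, Vector replicate 1 lay above both Malt1_PD libraries and Vector replicate 2 below both. Txn1 had 473 and 359 CPM in Vector, against 392 and 395 CPM in Malt1_PD. Sesn2 differed the other way, with 48.6 and 57.3 CPM in Vector. Txnip, which binds and inhibits thioredoxin, had 49.2 and 51.1 CPM in Malt1_PD and 50.3 and 53.1 CPM in Malt1_WT, against 75.8 and 68.8 CPM in Vector. The groups with added Malt1 lay well below Vector. Txnip was at -0.53 ± 0.09 log2 units in Malt1_PD (adjusted p = 0.165, edgeR) and -0.48 ± 0.09 in Malt1_WT (adjusted p = 0.263). Of 13 alternative settings, 5 called it in Malt1_PD and 4 in Malt1_WT, so most did not. With the length trend removed, 92 genes (0.627%, and 0.395% lower) were called in Malt1_PD against Vector and 56 (0.382%, and 0.198% lower) in Malt1_WT against Vector, and Txnip was among them (-0.50, adjusted p = 0.0234, and -0.46, adjusted p = 0.0434). It was also called in both without Vector replicate 2 (adjusted p = 0.00377 and 0.00852), in both without the low-count filter (0.00374 and 0.0188), and in Malt1_PD without Vector replicate 1 (adjusted p = 0.0453, where 0.724% of all genes were called).

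The other transferases and detoxification genes, 25 tested, had 18 below 0 in Malt1_PD and 17 in Malt1_WT. Akr1b8, an aldo-keto reductase that reduces lipid aldehydes, had 59.5 and 57.0 CPM in Malt1_PD and 59.2 and 53.2 CPM in Malt1_WT, against 87.7 and 77.9 CPM in Vector. It was at -0.51 ± 0.10 in Malt1_PD (adjusted p = 0.213) and -0.56 ± 0.10 in Malt1_WT (adjusted p = 0.249), with no overlap with Vector. Under the length correction it was called lower in both (adjusted p = 0.0223 and 0.0127), as without Vector replicate 2 (0.00444 and 0.00502) and without the filter (0.00488 and 0.00133). DESeq2 called it in Malt1_WT (adjusted p = 0.0363), with 0.211% of all genes. Of 13 alternative settings, 4 called Akr1b8 in Malt1_PD and 5 in Malt1_WT, so most did not. Osgin1, an oxidative stress-induced growth inhibitor, had 27.6 and 24.2 CPM in Malt1_PD and 26.5 and 24.4 CPM in Malt1_WT, against 31.6 and 31.5 CPM in Vector (adjusted p = 0.54 and 0.608 against Vector).

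In glutathione turnover, 8 of 10 genes were below 0 against Vector in each comparison. Chac1, which degrades glutathione, had 11.3 and 11.5 CPM in Malt1_PD and 10.5 and 11.3 CPM in Malt1_WT, against 15.3 and 14.6 CPM in Vector, or -0.39 ± 0.13 and -0.45 ± 0.13 log2 units (adjusted p = 0.478 and 0.486). Glrx, a glutaredoxin that removes glutathione from proteins, had 77.6 and 78.1 CPM in Malt1_PD and 80.1 and 72.4 CPM in Malt1_WT, against 100.5 and 88.5 CPM in Vector (adjusted p = 0.512 and 0.562). Without Vector replicate 2, Glrx was called lower in both (adjusted p = 0.034 and 0.0308). Ggct, which splits gamma-glutamyl dipeptides, went the other way, at 0.26 ± 0.11 in Malt1_PD and 0.19 ± 0.11 in Malt1_WT (adjusted p = 0.576 and 0.774). Sod3, the extracellular superoxide dismutase, had 92.8 and 87.8 CPM in Malt1_PD and 86.9 and 85.8 CPM in Malt1_WT, against 75.4 and 69.5 CPM in Vector. All 4 libraries with added Malt1 lay above Vector (adjusted p = 0.381 and 0.585), while the other 3 superoxide and peroxide enzymes, Sod1, Sod2 and Cat, were below 0.

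For haem and iron, 5 of 7 genes were below 0 against Vector in each comparison. Blvrb, a biliverdin reductase, was at -0.29 ± 0.12 in Malt1_PD and -0.20 ± 0.11 in Malt1_WT (adjusted p = 0.548 and 0.774, edgeR). Its difference in Malt1_PD was -0.43 without Vector replicate 2. Without Vector replicate 1 it was at -0.14 in Malt1_PD and -0.045 in Malt1_WT (adjusted p = 0.61 and 0.889). Fth1, the ferritin heavy chain that stores iron, averaged 4826 CPM in Malt1_PD, 5100 CPM in Malt1_WT and 5590 CPM in Vector. Its difference from Vector was -0.21 ± 0.09 in Malt1_PD and -0.13 ± 0.09 in Malt1_WT (adjusted p = 0.576 and 0.821), and without Vector replicate 2 it was called in both (-0.32 and -0.24, adjusted p = 0.00713 and 0.034), as in Malt1_PD without the filter (0.0366). Without Vector replicate 1 it was at -0.085 in Malt1_PD and -0.0060 in Malt1_WT (adjusted p = 0.57 and 0.979), so its size rests on which Vector library is used. Hmox1 lay on the other side of 0, as given above.

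**Figure D4:**
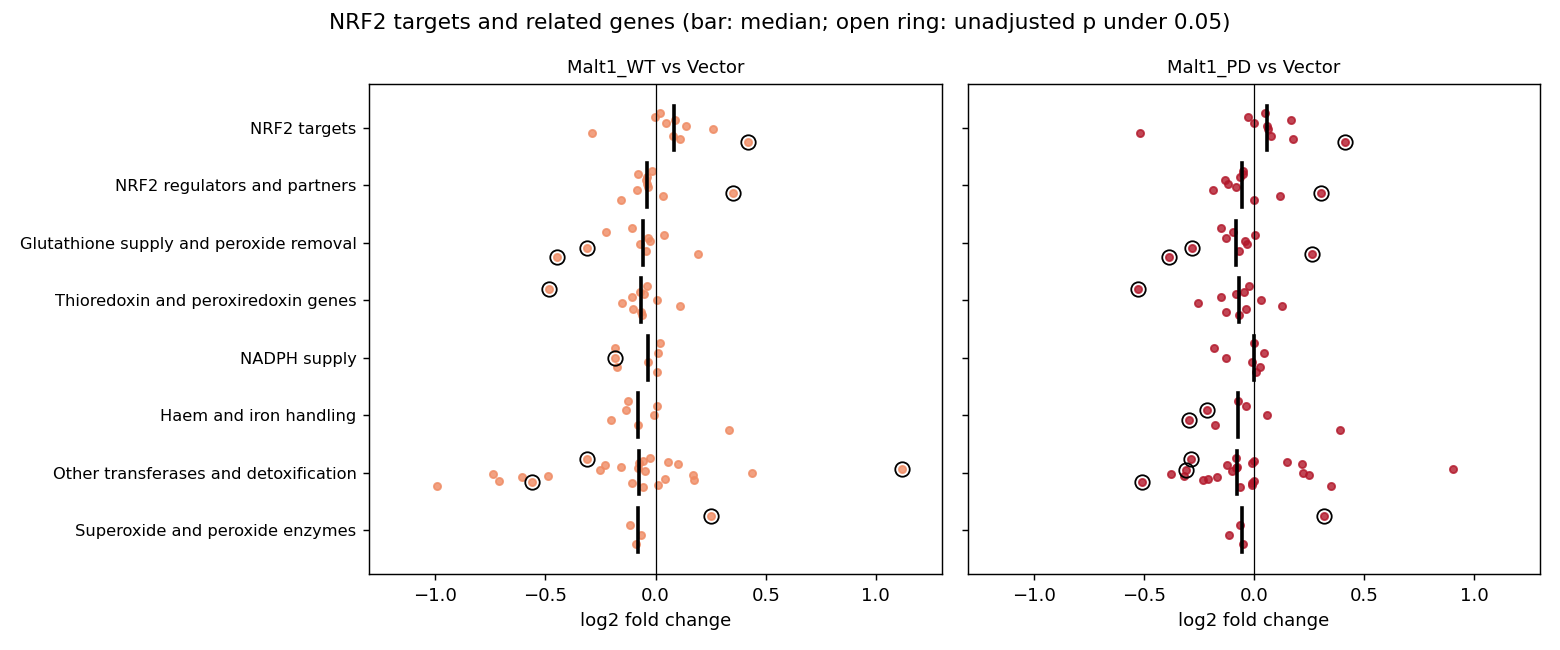
Log2 difference from Vector of the 10 NRF2 targets and of the 74 related genes by list, in Malt1_WT and in Malt1_PD; each point is a gene, the bar the median of its list and a ring an unadjusted p under 0.05. The targets have medians of 0.08 and 0.06, right of 0, and 6 of the 7 other lists have medians from -0.04 to -0.08 in both panels. Both panels use all 6 libraries, and the median of the 74 in Malt1_PD lies above 0 without Vector replicate 1 and Malt1_WT replicate 1.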

How the data were processed

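The authors deposited whole-number counts per gene, not normalised, with a gene length. Per the labels' protocols, directional libraries of total RNA were sequenced as 150-base pairs. The submitters' processing notes list Trim Galore 0.6.0, STAR 2.7.3a, featureCounts 1.6.3 and GRCm38.p6, and the sources used here give neither strand setting nor annotation release. 6 further per-sample columns were not used. Coordinates come from GENCODE M21 (GRCm38), which held 97.5% of the identifiers with version and all 10 targets.

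Counts were kept by filterByExpr and modelled in R 4.3.3 by edgeR 4.0.16 (TMM, quasi-likelihood F, all 6 libraries, a mean per group, no covariate). P-values are two-sided, adjusted by Benjamini-Hochberg over 14675 genes and called under 0.05. SE and 95% intervals come from that fit, and log2 CPM use a prior count of 2. The floor of 3 counts covers counting error only. The length trend was removed with a spline of 4 degrees of freedom per library. Scripts were tested on simulated data. Named by rule were the 10 targets, Malt1, up to 3 genes per list with the smallest p, and the genes most like 3 targets. Not all of these are printed. Members and lists were chosen with earlier results of these data known. Alternatives covered normalisation, filter, DESeq2 1.42.0, design, gene length and leaving out libraries.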

Additional observations from a re-analysis of the deposited data

How the results depend on the processing

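With all 6 libraries or any 1 left out, 0 of the 10 targets were called in each comparison, also with DESeq2 size factors, no filter, DESeq2, only the 2 groups compared, a fold of at least 2 and the length trend removed. Without Vector replicate 1 and Malt1_WT replicate 1 together, 2 were called (Ephx1 and Hmox1) in Malt1_WT against Vector and 2 in Malt1_PD against Vector. Over all genes the calls numbered 1 with all libraries, and 1 to 936, 0 to 2080 and 1 to 358 under the alternatives in Malt1_WT against Vector, Malt1_PD against Vector and Malt1_PD against Malt1_WT. Leaving out Vector replicate 2 alone gave 599 in Malt1_WT and 928 in Malt1_PD against Vector, and Vector replicate 1 alone gave 50 and 111. The replicate block called 0 targets and 6, 9 and 1 of all genes. Replicate 1 deviated alike in Malt1_WT and Vector (r = 0.68) but not in Malt1_PD and Malt1_WT (0.03) or Malt1_PD and Vector (-0.01), so the numbers were not taken as pairs. The 2 libraries that deviated alike are those low in long genes.

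Of 390 values for the targets, 41 changed sign, none of them called, with sizes up to 0.099 log2 units; the cause was not tested. In Malt1_WT minus Vector, Srxn1 was 0.0048 with DESeq2 size factors, 0.0046 without the filter, 0.0048 in DESeq2, 0.018 with the length trend removed and 0.0026 without both libraries. In Malt1_PD minus Vector, Nqo1 was 0.0050, 0.0043, 0.0050, 0.027 and 0.099 in the same settings, 0.0030 with only the 2 groups and 0.0018 with the replicate block, and Srxn1 was 0.0024 with the trend removed. In Malt1_PD minus Malt1_WT without both libraries, Nqo1 was 0.013, Gclc -0.066, Gclm 0.043 and Slc7a11 -0.0088, and with the trend removed Ephx1 was 6.3e-05. Leaving out 1 library gave, in Malt1_WT minus Vector, Nqo1 -0.041 to 0.14, Gclc -0.036 to 0.24, Txnrd1 -0.019 to 0.065, Srxn1 -0.011 to 0.0098 and Slc7a11 -0.061 to 0.26. In Malt1_PD minus Vector it gave Nqo1 -0.086 to 0.096, Hmox1 -0.015 to 0.14 and Gstm1 -0.0025 to 0.12. In Malt1_PD minus Malt1_WT it gave Nqo1 -0.11 to 0.013, Gclc -0.066 to 0.21, Gclm -0.048 to 0.043, Txnrd1 -0.0022 to 0.062, Slc7a11 -0.0078 to 0.19 and Ephx1 -0.099 to 0.079. With 2 libraries per group and 3 residual degrees of freedom, precision is limited by the number of libraries, and by depth for the genes with few counts, such as Gsta4 with 58 to 106.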

Other observations

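Idh1, which makes cytosolic NADPH, was the only one of the 74 related genes with an unadjusted p under 0.05 between the Malt1 forms. It averaged 144 CPM in Malt1_PD, 125 CPM in Malt1_WT and 142 CPM in Vector, with an adjusted p of 1 (edgeR) in Malt1_PD against Malt1_WT. Without Vector replicate 1 and Malt1_WT replicate 1, a setting chosen after seeing the data, Idh1, Akr1b3 and Prdx4 were called higher there, 4.05% of the 74 against 2.35% of all genes. Taldo1, of the pentose phosphate pathway, averaged 149 CPM in Malt1_PD, 148 CPM in Malt1_WT and 168 CPM in Vector (adjusted p = 0.676 and 0.771 against Vector). Mthfd2, of mitochondrial folate metabolism, averaged 124 CPM in Malt1_PD, 119 CPM in Malt1_WT and 136 CPM in Vector (adjusted p = 0.711 and 0.7). Tfrc, the transferrin receptor that brings in iron, averaged 540 CPM in Malt1_WT against 590 CPM in Vector (adjusted p = 0.768). In the fit without those 2 libraries, Tfrc was called in both comparisons with Vector and Taldo1 in Malt1_WT against Vector.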
